A study of Mus musculus with 2 samples.

Results

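The genes described here are the transcription factors of epithelial-mesenchymal transition (Snai1, Snai2, Zeb1, Zeb2, Twist1 and Twist2), the mesenchymal intermediate filament gene Vim, and the epithelial regulators Esrp1, Esrp2 and Grhl2. These 10 symbols were taken from a fixed list of names and not by their values, and they matched 11 of the 27376 rows of the count table, because Zeb1 has 2 rows. Fresh tumour tissue of the prostate came from 1 mouse of genotype Bcat_Only and 1 of genotype Met_Bcat, each 16 months old, and polyadenylated RNA was sequenced. For the Bcat_Only mouse the column heading adds the allele name Bcat_ex3Plus and the driver name PB_Cre. PB_Cre is commonly used for Cre recombinase under the probasin promoter, which is active in prostate epithelium, and loss of the named exon stabilises beta-catenin. The Met_Bcat heading gives a sample code only, so the form of MET that this mouse carried is not known from the labels. Tumour tissue was homogenised whole, so every level is a sum over the epithelial, stromal and immune cells in the piece, and fewer cells of a type cannot be told apart from less RNA per cell.

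SNAIL, ZEB and TWIST proteins repress epithelial genes such as the E-cadherin gene and permit a mesenchymal gene programme, in which vimentin is a common marker. ESRP1 and ESRP2 are RNA-binding proteins that select the epithelial exons of many transcripts, and GRHL2 is a transcription factor that maintains epithelial junction genes and opposes ZEB1. In whole prostate tissue these factors do not mark 1 cell type. Fibroblasts, endothelial cells and macrophages also express Vim and Zeb2, fibroblasts express the Twist genes, and basal epithelial cells express Snai2.

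Snai1, Twist2 and Vim were lower in Met_Bcat by more than 2-fold, and their promoters are shown because these are the genes that stood lower together. RefSeq promoters (build GRCm38.p6), which run from 250 bases before to 50 bases after the start, were found for 5 of the 10 genes: Snai1, Twist1, Twist2, Vim and Zeb2. Each is printed 5′ to 3′ on the plus strand, with any E-box of the letters CANNTG in capitals.
Snai1, chr2:167537945-167538244: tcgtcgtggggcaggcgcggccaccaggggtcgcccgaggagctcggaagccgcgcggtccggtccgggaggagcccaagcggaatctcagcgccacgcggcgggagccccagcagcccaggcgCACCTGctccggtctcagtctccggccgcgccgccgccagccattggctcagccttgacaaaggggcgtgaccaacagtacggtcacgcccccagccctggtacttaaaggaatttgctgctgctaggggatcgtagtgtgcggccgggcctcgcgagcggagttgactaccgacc
Twist2, chr1:91801211-91801510: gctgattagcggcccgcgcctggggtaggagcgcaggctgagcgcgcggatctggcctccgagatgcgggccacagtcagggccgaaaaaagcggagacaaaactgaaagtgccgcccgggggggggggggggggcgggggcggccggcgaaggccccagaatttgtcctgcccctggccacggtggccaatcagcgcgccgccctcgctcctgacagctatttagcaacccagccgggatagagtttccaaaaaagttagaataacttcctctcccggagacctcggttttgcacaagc
Vim, chr2:13574061-13574360: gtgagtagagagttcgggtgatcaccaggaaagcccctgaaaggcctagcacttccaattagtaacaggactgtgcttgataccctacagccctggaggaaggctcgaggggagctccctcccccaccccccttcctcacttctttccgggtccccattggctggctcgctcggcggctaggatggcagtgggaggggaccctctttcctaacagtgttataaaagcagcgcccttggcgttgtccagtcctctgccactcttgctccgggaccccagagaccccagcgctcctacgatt

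The Snai1 promoter held 1 E-box, which reads CACCTG on the printed strand and begins at position -126 relative to the start. CACCTG is the reverse complement of CAGGTG, the E-box form that SNAIL and ZEB zinc fingers are known to bind. The Twist2 and Vim promoters held 0 matches to CANNTG in these 300 bases, and so did the Twist1 promoter and the 4 windows listed for Zeb2. Searched on both strands over all 32851 RefSeq promoters of this length, CANNTG was found in 72.3% and CAGGTG, which is also 1 of the CANNTG forms, in 20.2%. The TCF/LEF letters CTTTGAT occurred in 3.73% of all promoters, and the AP-1 letters TGANTCA in 7.81%. Neither was found in the printed windows, and 1 of the Zeb2 windows held 2 AP-1 matches. A match describes letters only and is not a measured site.

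The Bcat_Only library held 19301062 reads in genes and the Met_Bcat library 20117724. Prostate identity was checked with Hoxb13, a homeobox gene of prostate epithelium, which had 26.9 CPM (read counts scaled by library size and TMM factor) in Bcat_Only and 153 CPM in Met_Bcat, and with Pbsn, the probasin gene, at 10.5 and 19.5 CPM. The transcripts that the genotypes name stood at 169 and 166 CPM for Met and at 981 and 974 CPM for Ctnnb1, which does not test either allele. Each ratio carries a 95% exact interval for the error of counting reads. Since each genotype is 1 library from 1 mouse, no difference has a replicate check or a test, and all describe these libraries. Below, higher and lower mean that the whole interval lay beyond 2-fold, for genes whose CPM averaged 1 or more over both libraries. The rule is one of size and not a test.

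Of the 10 genes, 9 reached that mean and Zeb1 did not. By the 2-fold rule 3 of the 9 were lower in Met_Bcat (Snai1, Vim and Twist2), 0 were higher and 6 were neither. Over all 14354 genes tested, 14.6% were lower and 4.42% higher by the same rule, or 2102 and 635 genes, and 2883 and 368 when libraries were scaled to luminal markers. The median log2 ratio of the 9 genes was -0.07, beside 0.03 over all genes. At 1.5-fold the same 3 genes were lower, where 19.7% of all genes were, and 1 was higher, Grhl2, where 8.12% of all genes were. Esrp2 fell just short of the 1.5-fold rule, with a lower interval end of 1.4999. The 9 genes thus did not share 1 direction: Snai2 and the 3 epithelial regulators had ratios above 1 that did not reach 2-fold, and Zeb2 had nearly the same value in both libraries. Scaling to luminal epithelial markers, which sets the median of 13 such genes to no difference and subtracts 0.44 from every log2 ratio, changed the sign of 0 of the 9 ratios.

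**Figure D1:**
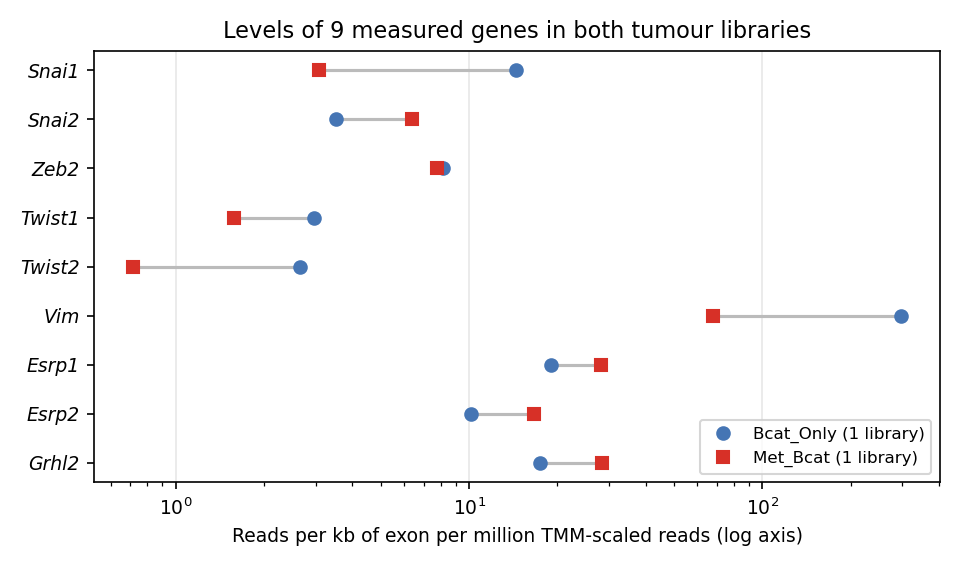
Level of each of the 9 measured genes in the Bcat_Only library (circles) and the Met_Bcat library (squares), in RPKM (CPM per kilobase of exon) on a log axis, with 1 library per genotype. Vim was the highest gene in both libraries, Snai1, Twist1, Twist2 and Vim lie further left in Met_Bcat, and Snai2, Esrp1, Esrp2 and Grhl2 lie further right.

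Among the SNAIL genes the order of the paralogs was opposite in the 2 libraries. Snai1 (mm9 chromosome 2, 167363695 to 167368314), a zinc finger repressor of the E-cadherin gene, drew 431 reads from the Bcat_Only tumour and 105 from that of Met_Bcat. It was 4.70-fold lower in Met_Bcat (3.79 to 5.87). Snai2 (chromosome 16, 14705945 to 14709488), which encodes the related repressor SLUG, drew 132 and 273 reads, in the same order of libraries. Its ratio was 1.81-fold in the other direction (1.46 to 2.24), under the 2-fold rule, and 7.65% of all genes tested had a larger ratio. Scaled to exon length as RPKM, the level of Snai1 was 14.4 in Bcat_Only (95% Poisson interval 13.1 to 15.9) and 3.07 in Met_Bcat (2.51 to 3.72). The level of Snai2 was 3.53 (2.95 to 4.18) and 6.38 RPKM (5.64 to 7.18). Snai2 thus made up 19.6% of the length-corrected sum of both paralogs in Bcat_Only and 67.5% in Met_Bcat. The ratio of Snai2 to Snai1 reads was 8.47-fold higher in Met_Bcat (6.24 to 11.6), a value that no library scaling can alter. Snai3, the third paralog, had 4 and 11 reads and was not tested.

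Both TWIST genes were weakly expressed and below their Bcat_Only value in Met_Bcat. Twist1 (chromosome 12, 34642536 to 34644682), a basic helix-loop-helix factor of mesenchyme, drew 88 reads from the Bcat_Only tissue and 54 from the other. Its ratio of 1.86-fold below Bcat_Only (1.31 to 2.67) was under the 2-fold rule. Twist2 (chromosome 1, 93698038 to 93744605), its paralog, known from dermal and other fibroblasts, drew 65 reads from Bcat_Only tissue and 20 from Met_Bcat tissue. The Twist2 ratio was 3.72-fold lower (2.22 to 6.48), and its Met_Bcat level of 0.949 CPM was under 1, so it passed the minimum mean through the Bcat_Only library. The levels of Twist1 were 2.96 RPKM in Bcat_Only and 1.59 in Met_Bcat, and those of Twist2 were 2.65 and 0.714 RPKM. In Bcat_Only the intervals of the paralogs overlapped (2.37 to 3.64 for Twist1 and 2.05 to 3.38 for Twist2), and in Met_Bcat they did not (1.19 to 2.07 and 0.436 to 1.10). Between the libraries the balance of Twist1 to Twist2 reads differed 1.99-fold, with an interval that nearly reached 1 (1.05 to 3.86). TWIST proteins pair with E proteins, and ID proteins block such pairs. Of 7 E protein and Id genes, 0 were higher and 0 lower by the rule, beside 4.42% and 14.6% of all genes tested. Their median log2 ratio was 0.41, and -0.03 under luminal marker scaling. Id1 had 54.8 CPM in Bcat_Only and 104 in Met_Bcat.

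Zeb2 (chromosome 2, 44839154 to 44972915), a zinc finger and homeodomain repressor, drew 2950 reads from Bcat_Only tissue and 3217 from Met_Bcat tissue. Its log2 ratio was -0.07 (-0.14 to 0.0035), and it turned to 0.07 with library sizes set to the total counts and to -0.51 (-0.58 to -0.44) with luminal marker scaling. By size this was the smallest difference of the 9 with TMM and with total counts, and the fifth smallest with luminal marker scaling. The level was 8.14 RPKM (7.85 to 8.44) in Bcat_Only and 7.76 (7.50 to 8.04) in Met_Bcat, so the counting intervals overlapped. The interval of the Zeb2 ratio included no difference with TMM and with total counts, and not with luminal marker scaling. The deposited exon length of Zeb2, 19659 bases, was the longest of the 10 genes, and a level per length falls with it. The antisense row Gm13476, which lies within the Zeb2 span, had 113 and 68 reads.

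Zeb1, the best known antagonist of GRHL2 and ESRP1, could not be measured from this table. Its 2 rows had 0 and 2 reads in each library, at or under the floor of 3 reads, and no fold is given. Both rows carry the symbol Zeb1 and lie on the same strand of chromosome 18, at 5591858 to 5775465 and at 5591870 to 5775741, with 183596 bases in common. That shared stretch is 99.8% of the second span and nearly all of the first. How reads that match both rows were counted is not given in the sources used here. Over the whole table, 29 pairs of rows share a symbol and cover each other by at least 90% on 1 strand. Of these pairs 72.4% had at most 10 reads over both rows and both libraries, beside 41.0% of all rows. The level of Zeb1 in these tumours was therefore not determined, and its low counts do not show absence.

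Vim was by far the most abundant of the 9 transcripts in both libraries and was much lower in Met_Bcat. Vim (chromosome 2, 13495554 to 13504453), which encodes the intermediate filament vimentin, drew 12803 reads from the Bcat_Only tumour and 3331 from that of Met_Bcat. It was 4.40-fold lower (4.23 to 4.57). Its level was 298 RPKM in Bcat_Only, above 99.2% of the genes tested, and 67.7 RPKM in Met_Bcat, above 95.2%. Snai1 and Vim differed between the libraries by like amounts, since the ratio of Vim to Snai1 reads changed 1.07-fold (0.858 to 1.34). Zeb2 did not share that difference: the ratio of Zeb2 to Vim reads was 4.19-fold higher in Met_Bcat (3.93 to 4.47).

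**Figure D2:**
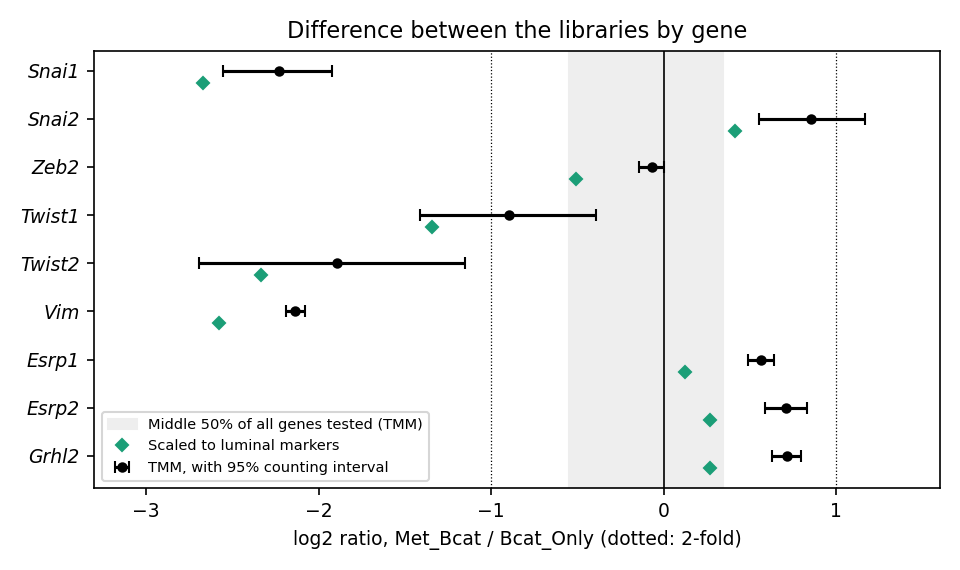
log2 ratio of Met_Bcat to Bcat_Only for each gene with its 95% exact interval for counting error (black), the same ratio under luminal marker scaling (green), and the middle 50% of all genes tested (grey band, -0.55 to 0.34). Snai1, Twist2 and Vim lie left of the dotted 2-fold line, Zeb2 lies near 0, and Snai2, Esrp1, Esrp2 and Grhl2 lie right of the grey band with TMM.

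The 3 epithelial regulators differed between the libraries by similar amounts. Esrp1 (chromosome 4, 11259080 to 11313930) drew 2208 reads from Bcat_Only tissue and 3735 from Met_Bcat tissue, and its scaled ratio was 1.48 (1.40 to 1.56). Esrp2 (chromosome 8, 108654219 to 108660874), the second epithelial splicing regulator, drew 813 and 1520 reads, at a ratio of 1.63 and a log2 ratio of 0.71 (0.58 to 0.83). Grhl2 (chromosome 15, 37162791 to 37293324), the grainyhead-like factor, drew 1764 and 3306 reads, at a ratio of 1.64 (1.55 to 1.74). These ratios were under the 2-fold rule, and 14.1%, 9.77% and 9.67% of all genes tested had larger ones. With luminal marker scaling the log2 ratios fell from 0.56 to 0.12 for Esrp1, from 0.71 to 0.27 for Esrp2 and from 0.71 to 0.27 for Grhl2. The size of these differences depended on the scaling, and the balance among the 3 genes does not.

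Within each library the epithelial regulators kept nearly the same proportions. Per length, Esrp2 made up 34.8% of the ESRP sum in Bcat_Only and 37.2% in Met_Bcat, and the ratio of Esrp2 to Esrp1 reads changed 1.11-fold (0.999 to 1.22). The ratio of Grhl2 to Esrp2 reads changed 1.002-fold (0.903 to 1.11), and that of Grhl2 to Esrp1 reads 1.11-fold (1.02 to 1.20). Against Vim the balance shifted several-fold. The level of Vim was 15.7 times that of Esrp1 in Bcat_Only and 2.41 times in Met_Bcat, and the ratio of Esrp1 to Vim reads was 6.50-fold higher in Met_Bcat (6.09 to 6.94). The same comparison gave 7.19-fold for Esrp2 (6.54 to 7.90) and 7.20-fold for Grhl2 (6.72 to 7.72). Against Zeb2, which is likewise a mesenchymal factor, Esrp1 differed by only 1.55-fold (1.44 to 1.67).

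**Figure D3:**
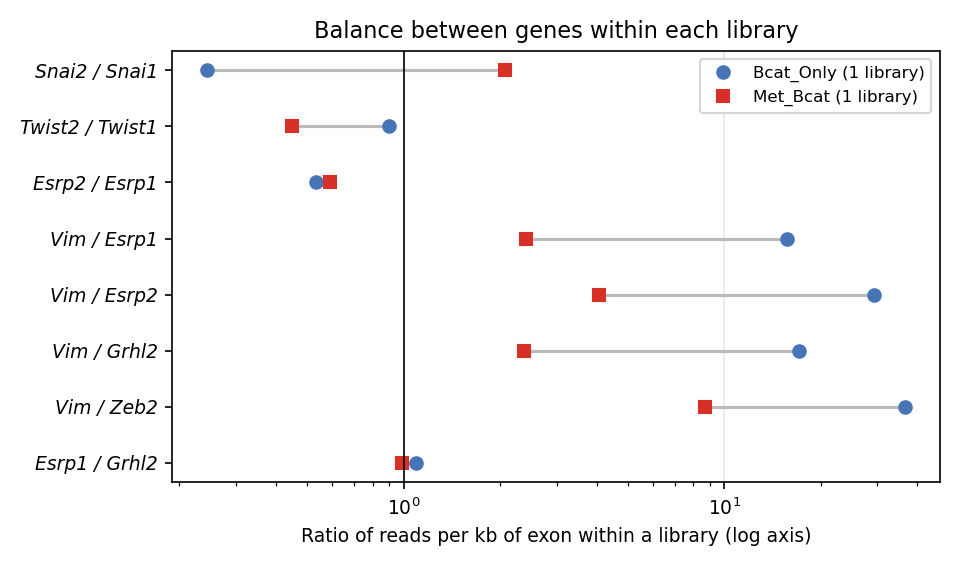
Ratio of the length-corrected reads of 2 genes within the Bcat_Only library (circles) and within the Met_Bcat library (squares), on a log axis, with 1 library per genotype. The ratio of Snai2 to Snai1 crosses 1, from 0.244 to 2.08, the ratios of Vim to the epithelial regulators and to Zeb2 are lower in Met_Bcat, and those of Esrp2 to Esrp1 and of Esrp1 to Grhl2 barely move.

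Ordered by level in Bcat_Only, Vim was followed by Esrp1, Grhl2, Snai1, Esrp2, Zeb2, Snai2, Twist1 and Twist2. In Met_Bcat the order was Vim, Grhl2, Esrp1, Esrp2, Zeb2, Snai2, Snai1, Twist1 and Twist2. Snai1 moved from rank 4 to rank 7. Of neighbours in the Bcat_Only order, the counting intervals of Snai2 and Twist1 overlapped, as did those of Twist1 and Twist2. In Met_Bcat those of Grhl2 (27.5 to 29.5 RPKM) and Esrp1 (27.2 to 29.0) overlapped. No spread between animals is available for either order.

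Features that overlap these genes were examined because the strand setting of the counting is not given, and without it reads of opposite strands cannot be told apart. At the start of Grhl2 the antisense row Gm16136 shares 274 bases with it and drew 836 and 1646 reads, a log2 ratio of 0.78 beside 0.71 for Grhl2. On the same strand the row Gm16137 lies wholly within Grhl2, over 760 bases, and drew 10 and 41 reads (log2 ratio 1.84). Esrp2 overlaps the antisense gene Nfatc3 by 219 bases, and Nfatc3 had 2501 and 2492 reads. Esrp2 also overlaps 1810019D21Rik (90 and 149 reads), and Esrp1 overlaps Gm16652 (0 and 1 read). Snai1, Snai2, Twist1, Twist2 and Vim overlapped 0 other rows.

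The wider mesenchymal programme was mostly lower in Met_Bcat. Of 20 mesenchymal effector genes 14 were lower by the 2-fold rule and 0 higher, beside 14.6% and 4.42% of all genes tested. Their median log2 ratio was -1.75. Lox, which cross-links collagen, was 82.4-fold lower (72.9 to 93.5), and Fbln5, an elastic fibre gene, 16.5-fold (13.5 to 20.4). Sparc, a matrix glycoprotein gene, was 11.5-fold lower (11.3 to 11.8), and Fn1, the fibronectin gene, 5.50-fold (5.39 to 5.62). The N-cadherin gene Cdh2 was low in both libraries, with 111 and 77 reads, and did not pass the rule at 1.65-fold lower (1.22 to 2.24). S100a4, a calcium-binding protein gene often used as a mesenchymal marker, stood at 26.8 CPM in Bcat_Only and 43.1 in Met_Bcat.

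Other mesenchymal transcription factors went both ways. Of 14 tested, 6 were lower and 1 higher, beside 14.6% and 4.42% of all genes tested, with a median of -0.92. Tbx18, a T-box factor of stromal progenitors, was read 56 times in Bcat_Only and 3 times in Met_Bcat, 21.4-fold lower (6.94 to 107). Its Met_Bcat count stood at the floor of 3 reads (0.142 CPM), so it passed the minimum mean through the Bcat_Only library. Tcf21, a fibroblast-lineage factor, was 9.36-fold lower (6.0 to 15.3), and Prrx1, a homeobox gene of mesenchyme, 2.42-fold (2.23 to 2.63). Foxf2, a forkhead gene of gut and prostate stroma, was the exception, with 23 and then 117 reads, 4.45-fold higher (2.83 to 7.29).

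Epithelial transcription factors were mostly above their Bcat_Only level. Of 16 tested, 5 were higher by the rule and 0 lower, beside 4.42% and 14.6% of all genes tested. Their median was 0.68, or 0.24 with luminal marker scaling. Grhl1, the paralog of Grhl2, was 2.95-fold higher (2.72 to 3.20), with 764 and 2577 reads. Trp63, the basal cell factor p63, was 3.24-fold higher (2.95 to 3.56), and Foxa1, a luminal factor, 2.47-fold (2.35 to 2.60). Ehf, an epithelial ETS factor, was higher at 2.05-fold (2.004 to 2.10). With luminal marker scaling 2 genes were higher and 1 lower. Foxa1 (1.82-fold) and Ehf (1.51-fold) then no longer passed. Grhl3 had only 66 and 94 reads, and Ovol1, a further antagonist of ZEB1, 251 and 398.

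Most of the junction and polarity genes that SNAIL and ZEB are known to repress did not reach 2-fold, and neither did most genes tested. Of 31 such genes 1 was higher and 2 were lower, beside 4.42% higher and 14.6% lower of all genes tested. Their median log2 ratio was 0.34 and turned to -0.10 under luminal marker scaling. Cdh1, the E-cadherin gene, had 890 CPM in Bcat_Only and 744 CPM in Met_Bcat, a log2 ratio of -0.26. Epcam, an epithelial adhesion gene, had 381 and 325 CPM (-0.23). The higher gene was Dsp, which encodes desmoplakin, at 2.37-fold (2.32 to 2.43), which did not pass with luminal marker scaling (1.75-fold, 1.70 to 1.79). The lower genes were the mucin gene Muc1 at 15.6-fold (10.6 to 23.7) and the claudin gene Cldn7 at 2.20-fold (2.02 to 2.39). With total counts Cldn7 no longer passed, since its interval reached 1.84-fold. The list counted 0 higher and 5 lower genes with luminal marker scaling, and 2 higher and 1 lower with total counts. The ratio of Cdh1 to Vim reads was 3.68-fold higher in Met_Bcat (3.52 to 3.84), while Cdh1 itself was not higher.

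Transcripts with exons that ESRP proteins regulate were compared at the level of the whole gene, which does not show which exon was used. Of 18, 2 were higher, 2 lower and 14 neither, beside 4.42% higher and 14.6% lower of all genes tested. The median was 0.09 and turned to -0.35 with luminal marker scaling. Cd44, a hyaluronan receptor with ESRP-dependent variable exons, was 2.11-fold lower (2.06 to 2.17), and Slc37a2, a sugar phosphate exchanger gene, 3.18-fold (2.63 to 3.87). Ralgps2, a Ral exchange factor gene, was 2.34-fold higher (2.14 to 2.56), and Grhl1 was the other. Cd44 did not pass with total counts, nor Ralgps2 with luminal marker scaling (1.72-fold, 1.58 to 1.88). Fgfr2, the receptor whose epithelial isoform depends on ESRP, stood at 58.6 and 116 CPM, a ratio of 1.98 (1.84 to 2.12) that fell short of the rule and passed it with total counts (2.17, 2.02 to 2.33). Ctnnd1, the p120-catenin gene, had 723 and 914 CPM.

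Among 18 other splicing regulators 2 were higher and 1 lower, beside 4.42% higher and 14.6% lower of all genes tested. Rbfox1, a splicing factor best known from neurons and muscle, had 6 reads in the Bcat_Only library and 218 in the other, 31.8-fold higher (14.4 to 87.5). Nova1, a neuronal splicing factor, drew 202 and 4 reads, 57.8-fold lower (22.2 to 214). Rbfox1 in Bcat_Only (0.33 CPM) and Nova1 in Met_Bcat (0.19 CPM) were under 1 CPM. Each of these genes passed the minimum mean through the other library. Khdrbs3, which encodes the STAR protein SLM2, was 2.52-fold higher (2.15 to 2.97), and did not pass with luminal marker scaling (1.86-fold, 1.58 to 2.19). Rbfox2, which promotes mesenchymal exons, had 145 and 164 CPM, and Rbm47, an epithelial splicing regulator, had 92.3 and 155 CPM.

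Of 18 corepressors and stability regulators of SNAIL and ZEB, 0 were higher and 0 lower, beside 4.42% and 14.6% of all genes tested. Their median was 0.19, and -0.25 with luminal marker scaling, where 2 were lower. TGF-beta is a main inducer of these factors. Of 12 ligand, receptor and SMAD genes, 1 was higher, 2 lower and 9 neither, beside 4.42% higher and 14.6% lower of all genes tested. Their median log2 ratio was 0.05, and -0.39 with luminal marker scaling. Tgfbr2 was 2.90-fold (2.78 to 3.02) and Tgfb3 2.74-fold lower (2.47 to 3.03). Smad7, a feedback inhibitor of the pathway, was 2.67-fold higher (2.47 to 2.89). With luminal marker scaling Smad7 stood at 1.97-fold (1.82 to 2.13) and no longer passed the rule.

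**Figure D4:**
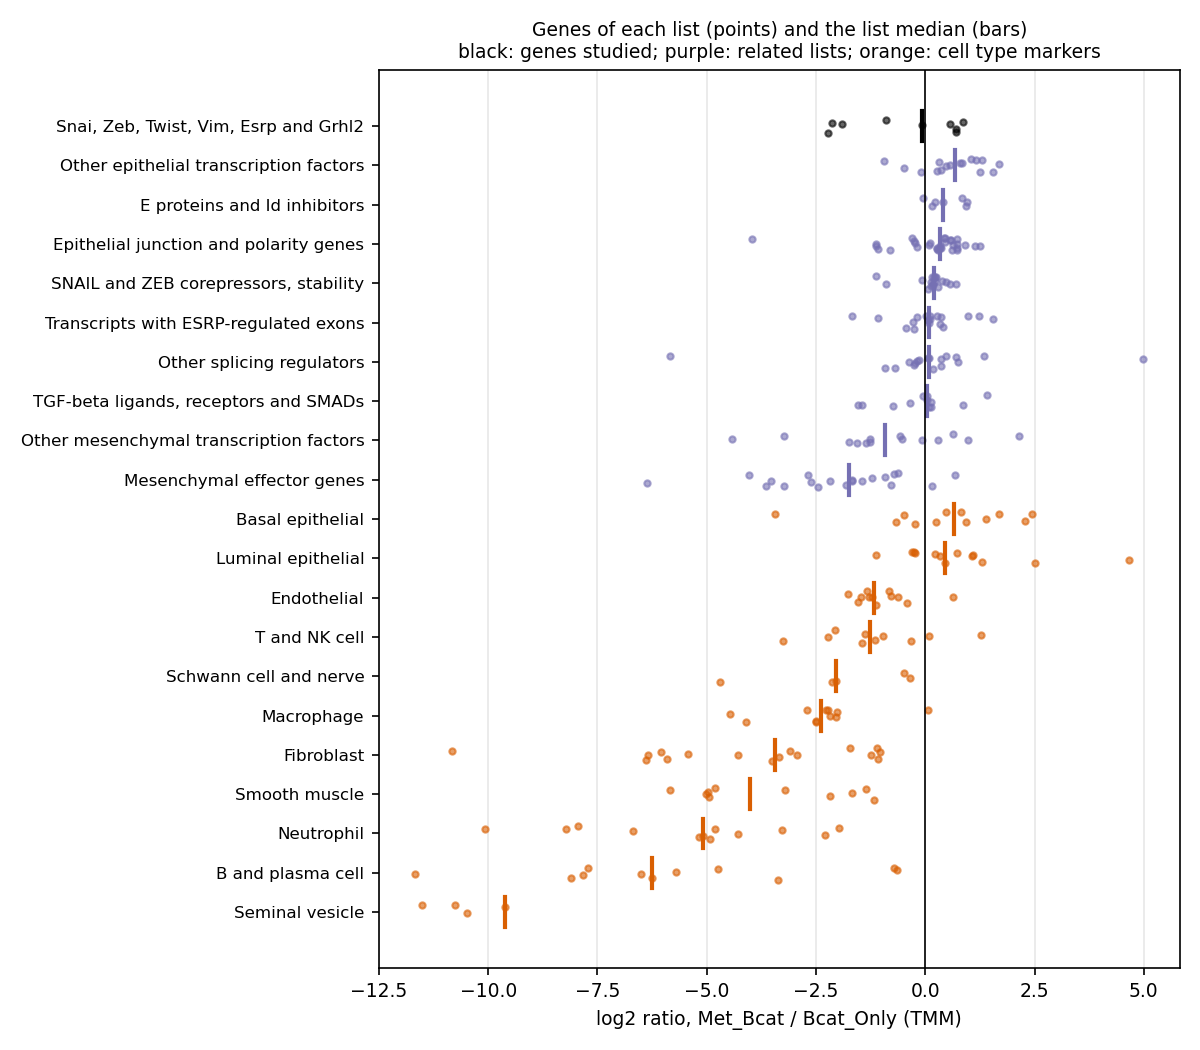
log2 ratio of Met_Bcat to Bcat_Only for the genes of each list that reached the minimum mean (points) and the median of the list (bars), for the genes studied (black), related lists (purple) and cell type markers (orange). Medians of the stromal and immune marker lists lie between -1.17 and -6.25 and that of seminal vesicle at -9.62, while those of basal and luminal markers are 0.65 and 0.44. The 5 genes with 0 reads in Met_Bcat have no point, and enter the median at the floor of 3 reads.

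Stromal and macrophage markers were mostly lower in Met_Bcat, where 14.6% of all genes tested were lower by the rule. All 16 fibroblast markers were below their Bcat_Only level, 14 by the rule, and their summed level was 25549 CPM in Bcat_Only and 1330 in Met_Bcat, with a median log2 ratio of -3.43 and 0 markers at 0 reads. Col1a1, Col1a2 and Col3a1, collagen genes, were 19.5-fold, 84.3-fold and 65.8-fold lower. Of 12 macrophage markers 11 were lower (3950 and 722 CPM in sum, median -2.38), with Cd163 at 828 reads in Bcat_Only and 0 in Met_Bcat. Endothelial markers, 7 of 12 lower (4 with total counts), had the smallest of these differences (870 and 558 CPM, median -1.17). Smooth muscle markers were lower in 10 of 10 cases (746 and 123 CPM, median -4.00). The log2 ratios of Vim (-2.14), Snai1 (-2.23) and Twist2 (-1.89) lay between those of the endothelial and the fibroblast lists, and that of Zeb2 (-0.07) lay above every stromal median. Whether the smaller share of stromal and immune RNA accounts for the lower Vim, Snai1 and Twist2 was not tested.

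Leukocyte and nerve lists had medians below no difference as well. By the rule 14.6% of all genes tested were lower. Neutrophil markers were lower in 13 of 13 cases (12012 and 1655 CPM, median -5.09), with Elane at 0 reads in Met_Bcat, and B and plasma cell markers in 9 of 11 (18036 and 746 CPM, median -6.25). T and NK cell markers were weak in both libraries (61.8 and 36.7 CPM), 2 of 10 lower (6 with luminal marker scaling), with Ncr1 at 0 reads in Met_Bcat. Schwann cell and nerve markers were lower in 3 of 5 (227 and 124 CPM). Secretory genes of the seminal vesicle, a gland next to the prostate, were lower in 7 of 7 (6877 and 4.74 CPM), and Svs1, Svs3a, Svs3b and Svs6 were at 0 reads in Met_Bcat.

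Basal epithelial markers were mostly above their Bcat_Only level, as Snai2 was. Of 12, 4 were higher and 1 lower, beside 4.42% and 14.6% of all genes tested. Their summed level was 1498 CPM in Bcat_Only and 2624 in Met_Bcat, with a median of 0.65, and 0 of them were at 0 reads. Krt5, the basal keratin gene, was 4.85-fold higher (4.67 to 5.05) and Itga6, an integrin gene of basal cells, 1.92-fold, while Dst, a hemidesmosome linker gene, was at 0.718 of its Bcat_Only level. Luminal markers, with which Esrp1, Esrp2 and Grhl2 may be compared, had 5 higher and 1 lower of 13 (2 and 1 once scaled to their own median), a summed level of 4545 and 7961 CPM and a median of 0.44. The log2 ratios of Esrp1 (0.56), Esrp2 (0.71) and Grhl2 (0.71) lay above this median and nearer to the basal median of 0.65. With luminal marker scaling their intervals lay above no difference (0.05 to 0.20, 0.14 to 0.39 and 0.19 to 0.35). The part of basal or luminal cell content in these values was not tested.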

How the data were processed

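Counts were deposited per gene by the authors as whole numbers, not normalised, per the file headers, with mm9 coordinates, strand and the total exon length in bases. TopHat2 version 2, HTSeq, edgeR and mm9 are named in the submitters' processing notes, and the strand setting is not given in the sources used here. The columns were matched to samples through the sample number that the labels give as description. Library sizes were scaled by TMM over the whole table (edgeR 4.0.16, R 4.3.3), with factors of 0.955 for Bcat_Only and 1.05 for Met_Bcat. Ratios carry 95% Clopper-Pearson intervals conditional on the summed reads, paired-gene ratios conditional exact odds ratio intervals (scipy 1.17.1), and levels exact Poisson intervals. All cover counting error only, since reads are not independent molecules. A count of 0 was set to the floor of 3 reads in list medians (0.163 CPM in Bcat_Only, 0.142 in Met_Bcat). The intervals and the rule were run on simulated Poisson counts with 200 genes changed by known folds. Such counts follow the assumption of the intervals and hold no spread between mice. The run therefore checks the calculation only, and not how far these libraries stand for their genotypes. No p-value was computed, since each genotype has 1 library.

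The genes, the 10 related and 11 marker lists and the tests were chosen with earlier results of these data known. Of 294 list genes 279 were found by symbol and 6 through reference names, and 9 were not matched, among them 7 loci of the miR-200 and miR-205 family, which are not analysed here. Named are all 10 genes, up to 4 genes of each related list past the rule, ranked by the interval end closer to 1, then Cdh1, Cdh2, Epcam and Fn1, and up to 3 markers per list by reads. A few of these genes are left out of the text. Others (Prrx1, S100a4, Ehf, Grhl3, Ovol1, Snai3, Id1, Fgfr2, Ctnnd1, Rbfox2, Rbm47, markers at 0) were chosen after their values were seen, as were the comparisons of overlapping rows and of promoter letters. Alternatives were total counts, upper quartile, DESeq2 (1.42.0) and luminal marker scaling, other minimum levels, other fold limits and pseudocounts.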

Additional observations from a re-analysis of the deposited data

How the results depend on the processing

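Under total counts, upper quartile, DESeq2 and luminal marker scaling, Snai1, Vim and Twist2 were lower by the 2-fold rule each time, and 0 of the 9 genes were higher. With a minimum of 5 CPM 2 were lower, since Twist2 was not counted. Of 54 recomputed ratios of the 9 genes 2 changed sign, those of Zeb2 with total counts and upper quartile. The median of the 9 genes was 0.065 with total counts, -0.51 with luminal marker scaling and 0.56 with a minimum of 5 CPM, which leaves out both Twist genes. The 4-fold rule left 1 lower gene, Vim, and the 1.5-fold rule gave 1 higher gene, Grhl2, with Esrp2 just short of it. A pseudocount of 2 CPM brought the log2 ratio of Twist2 to -0.91 and that of Twist1 to -0.57.

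Over all genes, 2883 were lower and 368 higher with luminal marker scaling, so that 88.7% of the differences past the rule were lower, against 2102 and 635 (76.8%) with TMM. The 1.5-fold rule gave 1166 higher genes, and the 4-fold rule 251 higher and 1086 lower. Relative to TMM every log2 ratio shifted by 0.13 with total counts and by -0.44 with luminal marker scaling. Of 180 recomputed list medians 6 changed sign, all with luminal marker scaling: those of the junction, E protein and Id, ESRP target, splicing regulator, corepressor and TGF-beta lists. Depth limits Twist1, Twist2, Snai1 and Snai2, with 20 to 431 reads each, more than the other genes. No paired analysis was possible because each genotype has 1 library.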
